A study of Mus musculus with 24 samples.

Results

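RNA was sequenced from pancreatic islets of mice with Cop1 deleted in β cells and in control islets. The comparison described here takes in 8 of the 24 samples of the series, the 4 libraries labelled ΔCop1β and the 4 labelled control whose sample numbers mark them as the second of 2 sets of libraries (set 2). Controls were Cop1 fl/fl, with both Cop1 alleles flanked by recombination sites and no Cre. Deletion animals were Cop1 fl/fl and also carried Pdx1.CreERT2, a Cre recombinase driven by the Pdx1 promoter and fused to the ligand-binding domain of the estrogen receptor. All animals were 3 to 4 months old and of mixed background, and the islets were cultured before they were picked by hand. What else the animals received to activate CreERT2 is not given in the sources used here, so the effects of Cre, of any such treatment and of Cop1 loss cannot be told apart. The Pdx1 promoter is active in β cells and, in part, in other cells of the pancreas.

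COP1 is a RING-type ubiquitin ligase. With the adaptor proteins DET1 and TRIB1 or TRIB2 and a CUL4 scaffold, it marks transcription factors for degradation, such as the PEA3 factors of the ETS family (ETV1, ETV4, ETV5) and the AP-1 factor JUN. Its substrates are therefore proteins whose amount can change without a change in their own mRNA. β cells couple the entry of glucose through GLUT2 to mitochondrial oxidation, closure of potassium channels, calcium entry and release of insulin granules, and factors such as MAFA, PDX1, NKX6-1 and NEUROD1 keep the genes of this chain active.

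Values are RPKM, in which the reads of a gene are divided by its length and by the total reads of that library. Total RPKM ran from 524289 to 682560 per library, 12995 to 13595 genes reached 1 RPKM, and the shallowest library had 0.758 times the depth of the deepest. The defining islet hormones were abundant in all 8 libraries, with Ins1 and Ins2 together making up 26.9% to 30.7% of RPKM in control and 21% to 27.1% after deletion. In bulk islets, fewer cells of a type and less RNA per cell cannot be told apart. Sex is not labelled. Xist, the RNA of the inactive X chromosome, was at 51.6, 59.1, 62.9 and 60 RPKM in control replicates 1 to 4 and at 74.2 and 48.3 in deletion replicates 1 and 4. Deletion replicates 2 and 3 had 0.0627 and 0.0345 RPKM of Xist and 26.2 and 26.8 of the Y-linked gene Eif2s3y, which did not exceed 0.0228 in any of the other 6 libraries. Tsix, the antisense partner of Xist, gave the same split, and reads of these overlapping genes cannot be separated without strand.

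The pair with Y-linked RNA and control replicate 4 stood apart from the other libraries. The first principal component, with 42.9% of the variance, placed deletion replicates 2 and 3 at 50.3 and 27.8, against -30.3 to 2 for the other 6 libraries. The second, with 23%, placed control replicate 4 at 45.8 and the others between -19.4 and 2.8. Deletion replicates 2 and 3 also had the highest summed levels of macrophage and dendritic cell, leukocyte, stellate and fibroblast, and interferon-responsive genes. Counts of called list members are therefore also given, where they change, without these 3 libraries, an alternative added after the data were seen.

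**Figure D1:**
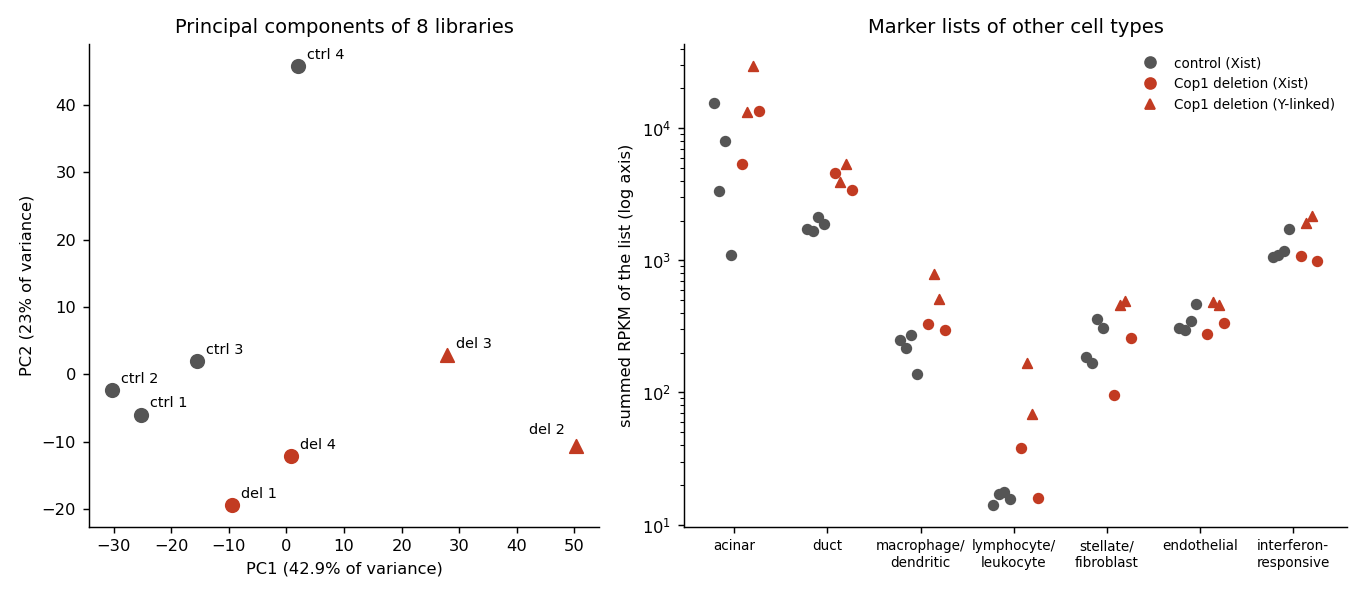
Left, the first and second principal components of log2(RPKM + 0.5) over the genes tested, 1 point per library (ctrl, control; del, Cop1 deletion). Right, the summed RPKM of each marker list per library on a log axis, with circles for libraries with Xist and triangles for those with Y-linked RNA. Deletion replicates 2 and 3 (triangles) lie to the right at 50.3 and 27.8 and have the highest leukocyte sums, 167 and 69.1 RPKM.

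Of 13342 genes tested, 449 changed between control and Cop1 deletion, 279 higher and 170 lower after deletion. This is 2.09% of the genes tested in the upward and 1.27% in the downward direction. These shares are the background for the counts of list members below, and a single changed member says little about its list. A gene was called, and is said to have risen or fallen, where its Benjamini-Hochberg adjusted p from limma over all 13342 genes was below 0.05, and changes are differences of log2(RPKM + 0.5). At least 2-fold changes were called for 89 genes that rose and 60 that fell, and at least 4-fold changes for 16 and 5. All 449 genes changed in the same direction in deletion replicates 1 and 4 and in deletion replicates 2 and 3, each pair taken against the mean of the controls, which is a description, since the calls used the same libraries. Without a test, all 4 deletion libraries lay above all 4 controls for 1040 genes, or 7.79%, and below them for 1170, or 8.77%. By limma, 2431 of the 13342 genes had an unadjusted p below 0.05, which is the background for such counts in the lists below.

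The number of called genes depended on the libraries. It was 815 higher and 792 lower without the 3 libraries that stood apart, and 104 higher and 46 lower without deletion replicates 2 and 3 alone. It fell to 86 and 39 without control replicate 1, 97 and 50 without control replicate 2, and 84 and 43 without control replicate 3. It was 132 and 76 without deletion replicate 1, 137 and 70 without deletion replicate 3, and 174 and 118 without deletion replicate 4. It rose to 309 and 206 without deletion replicate 2 and to 329 and 260 without control replicate 4. The 815 higher and 792 lower of 13342 genes are the background for the list counts given below without the 3 libraries that stood apart. The split between higher and lower genes depended on the scaling, with 139 higher and 160 lower at equal total RPKM and 129 and 370 at equal total RPKM without Ins1 and Ins2. At equal total RPKM, Itpr3, Trpm4, Scn3a, Prkar1a, Cadps2, Slc25a13, Pyy, Pfkfb2, Notch1 and Atf3, described below, were not called, and Ins1 fell. Fitted with the spread of all 12 set 2 libraries, Ins1, Etv5, Nkx6-1, G6pc2, Slc30a8 and Vegfa also fell. In the 5 libraries left without the 3 that stood apart, Aldh1a3, Spp1 and Sst were not called, and Etv5, Ins1, Nkx6-1, Chga, Ccnd2 and Vegfa fell. A term for Xist or Y-linked RNA over the 8 libraries ended 42 of the calls described here, and over the 12 libraries of set 2 those of Spp1 and Sst. The 42 were those of Cop1, Nkx2-2, Pcsk1, Pfkfb2, Slc25a13, Hadh, Prss53, Kcnk16, Trpm4, Scn3a, Atp2a2, Atp2a3, Cadps2, Gng12, Pyy, Sst, Aldh1a3, Spp1, Atf3, Sqle, Gpx2, Igf2, Ddc, Notch1, Ppp1r1a, Ctnnal1, Selenop, Gla, Glb1, Grn, Ctsa, Man2b1, Ncl, Nop58, Gnl2, Ftsj3, Utp4, Mybbp1a, Vdr, Lpl, Ugt1a1 and Ugt1a2. Over the 8 libraries, this term set only deletion replicates 2 and 3 apart. The change in that fit is thus the mean of deletion replicates 1 and 4 against the controls. The 42 changes were 0.68 to 1.17 times (median 0.91) the values given here. Their direction was already fixed by the match of both pairs stated above, so that it was kept is no test of an effect of sex.

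For single genes, "up to" after an adjusted p gives the highest adjusted p with 1 of the 8 libraries left out, and stands only where leaving out a library ended the call. Of 85 called genes described, 44 kept the call in all 8 such fits. Leaving out control replicate 1 ended 40 of these calls, control replicate 2 and control replicate 3 39 each, control replicate 4 9, deletion replicates 1 and 3 30 each, deletion replicate 2 5 and deletion replicate 4 21.

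The targeted gene was lower in every deletion library. Cop1 (NCBI Gene 26374) was at 1.54, 1.87, 1.72 and 1.43 RPKM in the controls and at 0.934, 0.922, 0.763 and 0.88 after deletion. The groups did not overlap, and Cop1 fell by 0.64 (SE 0.12, adjusted p = 0.025, up to 0.099). A single value for the gene includes reads outside the deleted part, and islets hold cells in which the Pdx1 promoter is silent. Esr1 (NCBI Gene 13982), whose coding sequence is part of CreERT2, was at 0.2, 0.05, 0.119 and 0.164 RPKM in control and 48.4, 68, 44 and 79.8 after deletion (log2 fold change 6.54, SE 0.20, adjusted p = 1.8e-06). It followed the labels in all 8 libraries. Reads of CreERT2 and of the endogenous gene cannot be told apart in a value per gene.

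The mRNA of the PEA3 factors was not called in either direction. Etv5 was at 6.25, 6.99, 5.38 and 2.93 RPKM in control and 2.75, 1.23, 2.25 and 2.34 after deletion, below every control in all 4 libraries but not called (log2 difference -1.13, SE 0.28, adjusted p = 0.074). Etv1 was at 4.48, 5.65, 6.09 and 5.63 and 5.06, 1.81, 4.56 and 5.12 RPKM, and only deletion replicate 2 lay far below the rest (log2 difference -0.44, adjusted p = 0.42). Etv4 was too low to test, at 0.349 to 0.661 RPKM in control and 0.551 to 1.64 after deletion.

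The largest rise apart from Esr1 was in Aqp3 (NCBI Gene 11828), which encodes a channel for water and glycerol. Aqp3 was at 0.114, 0.204, 0.222 and 0.422 RPKM in control and 32.6, 32.2, 29.1 and 32.7 after deletion. The gene thus went from near silence to a level that differed little between the 4 deletion libraries, and it rose by 5.46 (SE 0.13, adjusted p = 6.2e-07). The largest falls were in Mafa (NCBI Gene 378435), a transcription factor of mature β cells, and Slc2a2 (NCBI Gene 20526), the glucose transporter GLUT2. Mafa was at 161, 181, 135 and 104 RPKM in control and 9.77, 13.4, 6.63 and 16.1 after deletion, and fell by 3.65 (SE 0.27, adjusted p = 0.00056). Slc2a2 was at 85.8, 77.2, 56.6 and 36.4 and 5.21, 4.61, 4.66 and 7.82 RPKM and fell by 3.37 (SE 0.28, adjusted p = 0.001). Control replicate 4 was the lowest control for both genes and still lay far above every deletion library.

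Because the PEA3 factors bind DNA at a GGAA core, the 250 bases before the start of 3 genes are shown: Slc2a2 and Aqp3, whose changes are given above, and Dusp5, an ERK phosphatase gene described below. The sequences are from RefSeq, build GRCm38.p6, and run 5′ to 3′ on the strand of the gene, with each GGAA and its reverse complement TTCC in capitals.
Slc2a2 (chr3:28697653-28697902, plus strand): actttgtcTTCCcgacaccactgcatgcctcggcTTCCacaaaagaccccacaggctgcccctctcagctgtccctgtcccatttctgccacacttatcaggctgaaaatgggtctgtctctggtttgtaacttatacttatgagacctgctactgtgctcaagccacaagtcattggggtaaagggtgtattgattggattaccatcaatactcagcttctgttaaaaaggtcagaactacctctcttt
Aqp3 (chr4:41098184-41098433, minus strand): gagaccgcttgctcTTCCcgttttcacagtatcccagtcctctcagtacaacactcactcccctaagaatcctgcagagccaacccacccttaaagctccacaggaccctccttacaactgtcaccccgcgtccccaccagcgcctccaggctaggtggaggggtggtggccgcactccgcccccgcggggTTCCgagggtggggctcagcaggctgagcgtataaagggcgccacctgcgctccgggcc
Dusp5 (chr19:53528895-53529144, plus strand): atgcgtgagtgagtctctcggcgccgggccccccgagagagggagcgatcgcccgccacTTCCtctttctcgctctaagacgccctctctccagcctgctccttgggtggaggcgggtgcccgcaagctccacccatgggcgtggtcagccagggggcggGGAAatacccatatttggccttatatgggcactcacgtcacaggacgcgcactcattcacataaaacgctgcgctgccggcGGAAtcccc
Slc2a2 and Aqp3 each hold 2 such cores in this window and Dusp5 holds 3. Such a match is common: 93.4% of 32851 RefSeq promoter windows of this length and 92.9% of those of tested genes (9772 of 13342 had one) hold at least 1 on either strand. The longer CCGGAA, which contains GGAA, is in 12% of all windows and 21.3% of those of tested genes, and in none of the 3 shown.

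Other genes with no more than 2.5 RPKM in any control rose. Tm4sf20, which encodes a membrane protein, went from 0.0937, 0.0479, 0.178 and 0.52 to 4.12, 15, 10.2 and 6.22 RPKM and rose by 3.62 (SE 0.37, adjusted p = 0.0029). Deletion replicates 2 and 3 were the highest for Tm4sf20. No deletion library overlapped with a control, which the rule for naming the largest changes required. Rnf152, which encodes a lysosomal ubiquitin ligase, was at 0.63 to 1.78 RPKM in control and 4.68 to 9.02 after deletion (2.46, adjusted p = 0.004). Bend5, a BEN-domain gene, was at 1.99, 2.49, 2.04 and 2.5 and 12.8, 15.5, 13.9 and 12.9 RPKM and rose by 2.38 (SE 0.11, adjusted p = 3.6e-05). Both groups were tight for Bend5, with a SD of 0.275 RPKM in control and 1.23 after deletion (n = 4 each).

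Signalling and adhesion genes were among the other large rises. Rasgrf2, an exchange factor that activates Ras-family GTPases, was at 7.38, 7.88, 8.92 and 8.64 RPKM in control and 56.7, 32.2, 58.5 and 42.1 after deletion, and rose by 2.42 (SE 0.18, adjusted p = 0.0006). Blnk, an adaptor first known from B-cell receptor signalling, rose by 2.18 (adjusted p = 0.0054), at 1.21 to 3.29 RPKM in control and 8.13 to 13.6 after deletion. Ceacam10, a cell adhesion gene, rose by 2.12 (adjusted p = 0.0029), at 1 to 1.39 RPKM in control and 5.13 to 10.2 after deletion. Lratd1 rose by 2.07 (adjusted p = 0.0037), at 6.31 to 8.56 RPKM in control and 22.5 to 45.5 after deletion. For all 4 genes the lowest deletion library lay above the highest control, which the rule that named them required.

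Several metabolic and transport genes fell to a small part of their control level. Atp4a, the catalytic subunit of the gastric proton pump, was at 5.46, 5.2, 3.45 and 4.62 RPKM in control and 0.665, 0.38, 0.464 and 0.561 after deletion, and fell by 2.34 (SE 0.16, adjusted p = 0.00048). Cbs, cystathionine β-synthase of the transsulfuration pathway, was at 53.1, 49.3, 46.3 and 39.4 and 14.7, 12.3, 14.6 and 15.9 RPKM and fell by 1.68 (SE 0.11, adjusted p = 0.00048). The 4 deletion libraries lay close together for Cbs, and the lowest control was more than 2 times the highest of them. Dapl1 fell by 2.67 (adjusted p = 0.00039), at 14.7 to 23 RPKM in control and 2.12 to 3.17 after deletion. The uncharacterised 2200002J24Rik fell by 2.6 (adjusted p = 0.00035), at 4.77 to 6.47 RPKM in control and 0.349 to 0.8 after deletion. Fmo1, a flavin monooxygenase, fell by 1.94 (adjusted p = 0.01). Ovol2, a zinc finger factor of epithelial cells, was at 5.77 to 7.96 RPKM in control and 1.17 to 1.76 after deletion, and fell by 1.92 (adjusted p = 0.00055). Ppp1r1a, an inhibitor of protein phosphatase 1, fell by 1.72 (adjusted p = 0.02, up to 0.079), and Ctnnal1, which encodes α-catulin, fell by 1.67 (adjusted p = 0.016, up to 0.064).

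**Figure D2:**
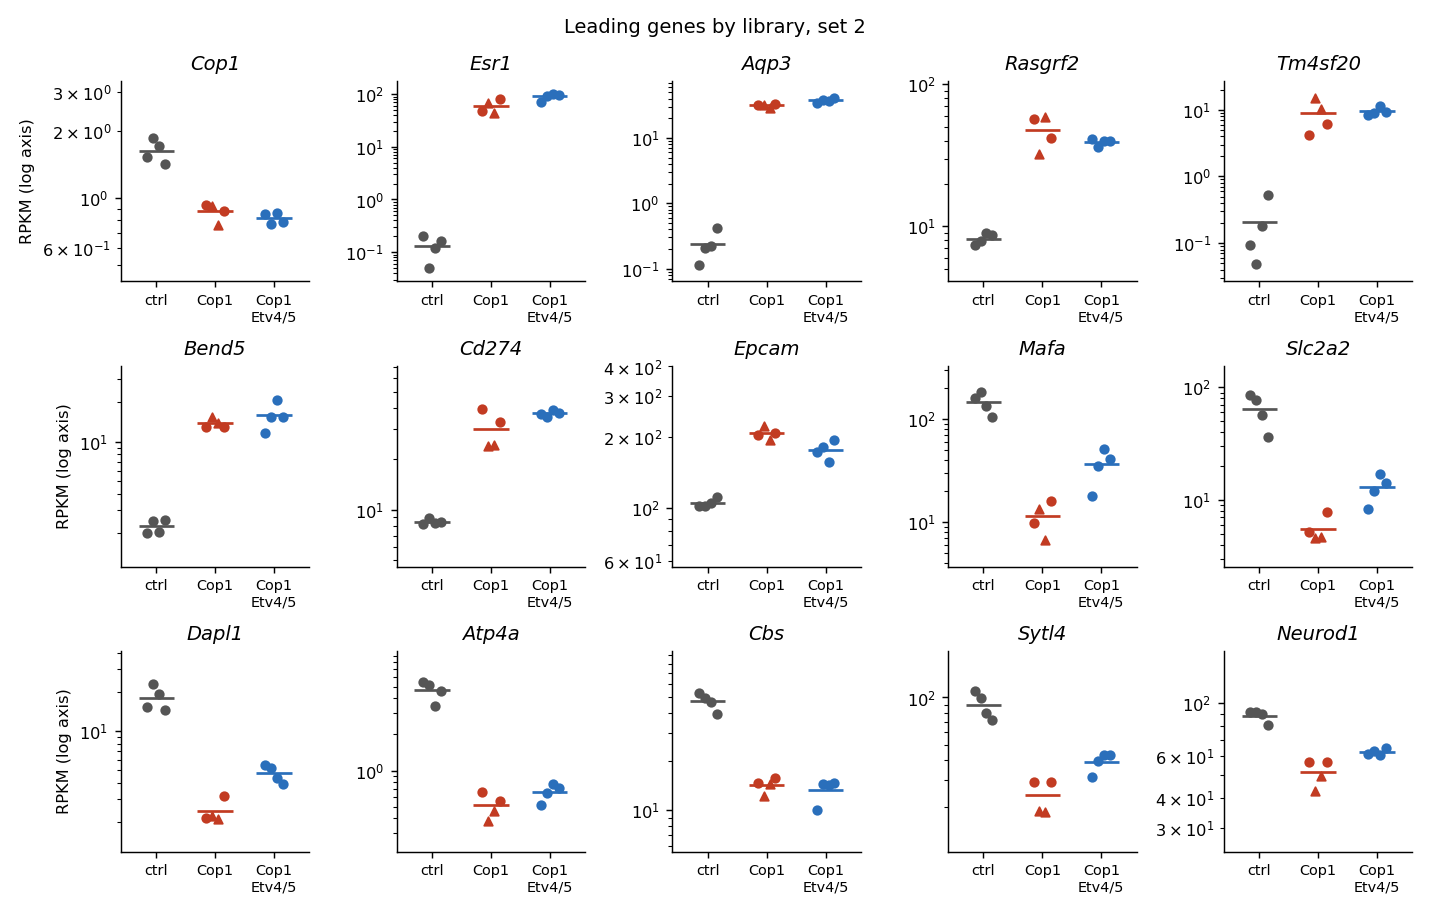
RPKM on a log axis in each set 2 library for 15 genes in control (grey), Cop1 deletion (red) and Cop1 Etv4/5 deletion (blue), with the group mean as a line and, among deletion libraries, triangles for those with Y-linked RNA. Red and grey points do not overlap in any panel, which the rule for naming the largest changes required of many of these genes. Aqp3 lies at 29.1 to 32.7 RPKM in the red group against 0.114 to 0.422 in grey, and Mafa at 6.63 to 16.1 against 104 to 181.

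Of 22 β-cell transcription factors, 3 fell and none rose, against a background of 1.27% and 2.09% of all genes, and the median log2 change of the 22 was -0.20 (-0.02 over all genes tested). Beside Mafa, Neurod1, a factor of endocrine cells, was at 91.2, 91.5, 90.1 and 80.9 RPKM in control and 56.5, 42.7, 49.5 and 56.4 after deletion and fell by 0.79 (SE 0.10, adjusted p = 0.0077). Nkx2-2, also an endocrine factor, was at 45.9, 45.7, 43.3 and 38.3 and 29.3, 31.1, 26.3 and 35 RPKM and fell by 0.51 (SE 0.10, adjusted p = 0.039, up to 0.14). Deletion libraries lay below all controls for the 3 genes. In the 5 libraries without those that stood apart, 2 rose and 5 fell. Also without a call, and chosen after their values were seen, were 3 further factors. Pdx1 was at 47.4 to 86.1 RPKM in control and 50.2 to 69.1 after deletion (adjusted p = 0.5), Nkx6-1 at 69.5 to 110.2 and 51.4 to 74.8 (adjusted p = 0.12), and Pax6 at 103 to 113 and 98.6 to 140.2 (adjusted p = 0.58).

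Among 13 genes of insulin and prohormone processing, 1 fell and none rose. This was Pcsk1, the prohormone convertase that makes the first cut in proinsulin, at 368, 351, 379 and 269 RPKM in control and 201, 139.6, 169.5 and 209.9 after deletion (log2 fold change -0.93, SE 0.16, adjusted p = 0.02, up to 0.081). Ins1 was at 33280, 30890, 32320 and 28130 RPKM in control and 18550, 24930, 17920 and 24120 after deletion. All 4 deletion libraries lay below the controls, but the difference was not called (-0.56, adjusted p = 0.093). Ins2 was at 113200 to 158500 and 107800 to 159900 RPKM, with overlap (-0.13, adjusted p = 0.71). Ins1 and Ins2 are near copies, so reads could be split between them. Leaving out the 3 libraries that stood apart, 1 rose and 3 fell of the 13. Of 13 granins and granule membrane proteins, 1 rose and 1 fell, and 3 rose and 3 fell without the 3 libraries. Chgb, the granule protein chromogranin B, was at 1587, 1338, 1508 and 1384 RPKM in control and 3191, 3696, 3860 and 2623 after deletion and rose by 1.19 (SE 0.14, adjusted p = 0.0053). Sytl4, the granule docking protein granuphilin, was at 109, 99.5, 79.3 and 71.4 and 29, 19, 18.7 and 28.9 RPKM and fell by 1.90 (SE 0.20, adjusted p = 0.0029). Thus a granule core protein and a docking protein moved in opposite directions. Slc30a8, the granule zinc transporter, chosen after its values were seen, was at 92.3 to 221 and 58.6 to 132 RPKM, with overlap (adjusted p = 0.13).

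Slc2a2 was the 1 called gene of 10 for glucose entry and phosphorylation. G6pc2, the islet glucose-6-phosphatase, was at 1193, 912, 937 and 1047 RPKM in control and 337, 329, 616 and 780.1 after deletion (-1.08, adjusted p = 0.086). It was chosen after its values were seen, and all deletion libraries lay below the controls without a call. Of 19 glycolytic genes 1 fell, Pfkfb2, which sets the level of fructose 2,6-bisphosphate, at 14.8 to 17.9 RPKM in control and 4.81 to 9.9 after deletion, a fall of 1.03 (adjusted p = 0.036, up to 0.12). Of 35 genes of the citrate cycle, anaplerosis and NADH shuttles 1 rose, beside 2.09% of all genes tested. This was the aspartate-glutamate carrier Slc25a13, by 0.50 (adjusted p = 0.04, up to 0.14). None of 49 respiratory chain and ATP synthase genes was called by limma (5 had an unadjusted p below 0.05, beside 2431 of all 13342 genes), with a median change of 0.06. The most abundant of these, Atp5b and Atp5a1, had log2 differences of -0.08 and -0.07. Counts in these 4 lists without the 3 libraries that stood apart were 1 rose and 1 fell, 1 rose and 1 fell, 3 rose and 4 fell, and 1 rose and 2 fell, in the same order. Of all 13342 genes, that fit called 815 higher and 792 lower.

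Mitochondrial and nitrogen-handling enzymes outside those lists were among the abundant genes that fell. Ogdhl, a tissue-restricted subunit related to 2-oxoglutarate dehydrogenase, was at 96.9, 82.4, 83.3 and 96.3 RPKM in control and 47.6, 33.6, 33 and 45.2 after deletion and fell by 1.18 (SE 0.14, adjusted p = 0.0054). Hadh, an enzyme of mitochondrial fatty acid oxidation known to restrain insulin release, was at 278, 261, 198 and 125 and 91.2, 104, 72.2 and 104 RPKM and fell by 1.16 (SE 0.25, adjusted p = 0.046, up to 0.15). Control replicate 4 was the lowest control for Hadh, close to the deletion range. Glul, glutamine synthetase, was at 118, 118, 100.2 and 71.6 and 34.1, 49.3, 42.5 and 42.7 RPKM and fell by 1.25 (SE 0.18, adjusted p = 0.011). Prss53, a serine protease gene, fell by 1.33 (adjusted p = 0.03, up to 0.11), at 293 to 443 RPKM in control and 93.8 to 219 after deletion.

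Ion channels and calcium pumps were called in both directions. Of 15 potassium channels 1 fell, Kcnk16, the background channel TALK-1, at 103, 92.1, 77.6 and 94 RPKM in control and 36.8, 42.5, 44 and 54.5 after deletion (log2 fold change -1.04, adjusted p = 0.0067). Of 19 calcium, sodium and TRP channels, 2 rose and 1 fell. Trpm5, a calcium-activated cation channel, was at 7.63, 6.68, 4.15 and 4.01 and 1.18, 1.24, 0.861 and 1.34 RPKM and fell by 1.85 (SE 0.22, adjusted p = 0.0053). Its close relative Trpm4 rose by 0.52 (adjusted p = 0.038, up to 0.14), at 2.56 to 2.95 RPKM in control and 3.77 to 4.75 after deletion, so these 2 related channels moved in opposite directions. Scn3a, a voltage-gated sodium channel, was at 2.19, 2.23, 2.46 and 4.23 and 9.39, 6, 17.3 and 11.5 RPKM and rose by 1.77 (SE 0.31, adjusted p = 0.023, up to 0.086). Of 15 genes of calcium stores and pumps, 2 fell and 1 rose. The calcium pump of the endoplasmic reticulum Atp2a2 (SERCA2) was at 441, 458, 366 and 289 and 206, 116, 162 and 207 RPKM and fell by 1.18 (SE 0.22, adjusted p = 0.027, up to 0.097). Its relative Atp2a3 (SERCA3) fell by 0.52 (adjusted p = 0.0498, up to 0.16), and Itpr3, a receptor that releases calcium from the same store, rose by 0.67 (adjusted p = 0.032, up to 0.11). With the 3 libraries that stood apart left out, 2 rose and 4 fell of the potassium channels, 4 rose and 2 fell of the calcium, sodium and TRP channels, and 3 rose and 3 fell of the stores and pumps.

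Few genes of exocytosis, receptors and G protein signalling were called, as was so for all genes tested (2.09% rose and 1.27% fell). Of 40 exocytosis genes 1 rose, Cadps2, which primes granules for release, by 0.86 (adjusted p = 0.024, up to 0.09). Of 21 incretin, nutrient and inhibitory receptors 1 rose, Ffar2, a receptor for short-chain fatty acids, at 10.6, 10.3, 9.61 and 9.64 RPKM in control and 16.7, 25.9, 28.1 and 20.5 after deletion (1.12, adjusted p = 0.0095). Of 31 G protein signalling genes 1 rose and 1 fell. Prkar1a, a regulatory subunit that holds protein kinase A inactive, was at 458, 495, 534 and 461 and 1406, 776, 985 and 963 RPKM and rose by 1.05 (SE 0.17, adjusted p = 0.017, up to 0.072). Gng12, a γ subunit of heterotrimeric G proteins, was at 230.3, 228, 193 and 144 and 86.5, 74.4, 89.8 and 113 RPKM and fell by 1.12 (SE 0.18, adjusted p = 0.016, up to 0.064). Over the 5 libraries without those that stood apart, 3 rose and 5 fell of the exocytosis genes, 1 rose and 3 fell of the receptors and 2 rose and 4 fell of the G protein genes. Of all 13342 genes, that fit called 815 higher and 792 lower.

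Of 5 hormones of other endocrine cells 1 rose and 1 fell. Pyy, peptide YY, was at 1635, 1985, 2082 and 2136 RPKM in control and 3363, 6669, 3808 and 3330 after deletion and rose by 1.07 (SE 0.23, adjusted p = 0.043, up to 0.14). Sst, somatostatin of δ cells, was at 4073, 3821, 5456 and 4055 and 2661, 2930, 2179 and 2855 RPKM and fell by 0.71 (SE 0.15, adjusted p = 0.043, up to 0.12). Deletion replicate 2 was by far the highest for Pyy, and the groups were separate for both genes. Without a call were Ppy and Gcg, chosen after their values were seen: Ppy was at 2909, 4529, 2038 and 3241 and 6013, 12350, 6201 and 3716 RPKM, and Gcg at 18560, 20880, 31110 and 20640 and 16950, 17150, 17500 and 28250. None of 11 factors and markers of α, δ and PP cells was called by limma (0 at an unadjusted p below 0.05), and the most abundant, Ttr and Rbp4, had differences of -0.20 and 0.17. Without the 3 libraries that stood apart, 1 rose and 0 fell of the 5 hormones.

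Of 9 progenitor and dedifferentiation genes tested, 1 rose. Aldh1a3, a retinaldehyde dehydrogenase that marks dedifferentiated β cells, was at 0.935, 1.17, 2.58 and 1.65 RPKM in control and 10.3, 17.8, 33.5 and 5.46 after deletion and rose by 2.83 (SE 0.50, adjusted p = 0.024, up to 0.087). Deletion replicate 3 was the highest and replicate 4 the lowest, a range of more than 6 times within the group. None was called without the 3 libraries that stood apart. None of 17 genes normally silenced in β cells was called by limma (1 at an unadjusted p below 0.05, and 1 called without the 3 libraries). Ldha, lactate dehydrogenase A, was at 11.3, 12.3, 14.6 and 27.4 RPKM in control and 11.9, 26.8, 57.1 and 14.2 after deletion, high in control replicate 4 and deletion replicates 2 and 3, the same libraries that stood apart.

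Of 15 ERK feedback genes 2 rose, beside 2.09% of all genes tested, and none fell, and without the 3 libraries that stood apart 4 rose and 1 fell. Dusp5, a nuclear phosphatase of ERK, was at 15.3, 17.4, 20.2 and 24.3 RPKM in control and 68.7, 58.1, 46.4 and 60.9 after deletion and rose by 1.58 (SE 0.16, adjusted p = 0.0029). Spry2, an inhibitor of receptor tyrosine kinase signalling, was at 8.62, 9.77, 10.4 and 8.61 and 17.8, 15.2, 14.1 and 20.3 RPKM and rose by 0.81 (SE 0.13, adjusted p = 0.016, up to 0.066). Both genes had no overlap between the groups. Of 18 ETS factors 1 rose, Elk3, an ERK-responsive ternary complex factor, at 11.8, 11.4, 12.4 and 11.3 and 17.2, 17.7, 19.8 and 18.7 RPKM (0.62, adjusted p = 0.0054), while 2 rose and 2 fell of the 18 without the 3 libraries that stood apart. Of 14 genes named as PEA3-group targets in other tissues 1 rose. This was Spp1, osteopontin, at 750.4, 891, 1268 and 919.9 and 3125, 2035, 3493 and 1844 RPKM (1.43, adjusted p = 0.02, up to 0.08). Its reads are shared with a near-identical gene entry without a symbol, which was also called, so its level is uncertain. In the 5 libraries without those that stood apart, 0 rose and 4 fell of these 14.

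Of 17 AP-1 and immediate early genes, a family that includes COP1 substrates, 1 fell and none rose. Atf3, a stress-induced factor, was at 8.32, 10.2, 9.13 and 10.3 RPKM in control and 6.44, 5.61, 6.52 and 6.33 after deletion and fell by 0.57 (SE 0.10, adjusted p = 0.02, up to 0.089). Of 19 genes of the COP1 ligase complex and the COP9 signalosome, Cop1 fell and Trib1 rose. Trib1, the adaptor that brings substrates to COP1, was at 24.6, 28.9, 31.6 and 25.1 and 78.4, 54.3, 72.1 and 54.7 RPKM and rose by 1.21 (SE 0.15, adjusted p = 0.0054). The lowest deletion library had 54.3 RPKM of Trib1 and the highest control 31.6. None of 17 genes of p53, itself named as a COP1 substrate, and its targets was called by limma (2 at an unadjusted p below 0.05); Cdkn1a and Bax, the most abundant, had differences of -0.09 and 0.15. Leaving out the 3 libraries that stood apart, 1 rose and 1 fell of the AP-1 list, 1 rose and 4 fell of the COP1 list and 2 rose and 0 fell of the p53 list.

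The calls in lists of stress and biosynthesis genes were falls. Of 24 amino acid response and serine synthesis genes 2 fell, Cbs and Atf3, and none rose, with a median change of -0.50. With the 3 libraries that stood apart left out, 12 of the 24 fell and none rose. Of all 13342 genes, that fit called 792 lower and 815 higher. Of 23 fatty acid and cholesterol synthesis genes 1 fell, beside 1.27% of all genes tested. This was the squalene epoxidase Sqle, by 0.62 (adjusted p = 0.019, up to 0.079), at 113 to 129 RPKM in control and 68.9 to 92.2 after deletion. All 4 deletion libraries lay below all controls for 6 of the 23, beside 8.77% of all genes tested. Of 18 oxidative stress genes 1 fell, the glutathione peroxidase Gpx2, by 1.23 (adjusted p = 0.03, up to 0.091), at 26.2 to 42.2 RPKM in control and 8.93 to 18.8 after deletion. No member was called by limma among 26 genes of protein folding and the unfolded protein response, 12 cytosolic heat shock genes and 18 ChREBP-responsive and hypoxia genes (3, 2 and 4 at an unadjusted p below 0.05, beside 2431 of all 13342 genes). Their most abundant members, Hspa5 and Hsp90b1, Hsp90ab1 and Hsph1, and Vegfa and Ndrg1, had differences between -0.40 and 0.05. Hspa5 and Hsp90b1 were high in control replicate 4 alone, at 1410 and 827 RPKM. Over the 5 libraries without those that stood apart, 1 rose and 2 fell of the lipid genes, 0 rose and 4 fell of the oxidative stress genes, 1 rose and 1 fell of the folding genes, 0 rose and 0 fell of the heat shock genes, and 1 rose and 2 fell of the last list.

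Of 22 imprinted genes 2 fell, none rose, and the median change was -0.57. All 4 deletion libraries lay below all controls for 10 of the 22, beside 8.77% of all genes tested. Nnat, neuronatin, was at 6.04, 5.91, 6.25 and 7.28 RPKM in control and 3.05, 4.12, 3.48 and 2.06 after deletion and fell by 0.93 (SE 0.18, adjusted p = 0.031, up to 0.098). Igf2, a growth factor, was at 3.65, 3.14, 3.11 and 2.72 and 1.75, 2.28, 1.95 and 1.81 RPKM and fell by 0.58 (SE 0.12, adjusted p = 0.042, up to 0.14). The median of the list was -0.18 without the 3 libraries that stood apart, when 5 fell. Of 12 serotonin and lactogen response genes 1 fell, Ddc, the decarboxylase that makes serotonin and dopamine, at 118, 105, 91.9 and 55 and 21.3, 42, 24.4 and 39.4 RPKM (-1.53, adjusted p = 0.03, up to 0.11). Of 29 genes of the TGF-β, BMP, Wnt and Notch pathways 1 fell, beside 1.27% of all genes tested. This was the receptor Notch1, by 0.59 (adjusted p = 0.04, up to 0.12). None of 17 cell cycle genes was called by limma (2 at an unadjusted p below 0.05), and the most abundant, Ccnd2 and Cdkn1a, had differences of -0.51 and -0.09. Without the 3 libraries that stood apart, 0 rose and 3 fell of the serotonin list, 1 rose and 3 fell of the pathway list and 0 rose and 1 fell of the cell cycle genes.

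**Figure D3:**
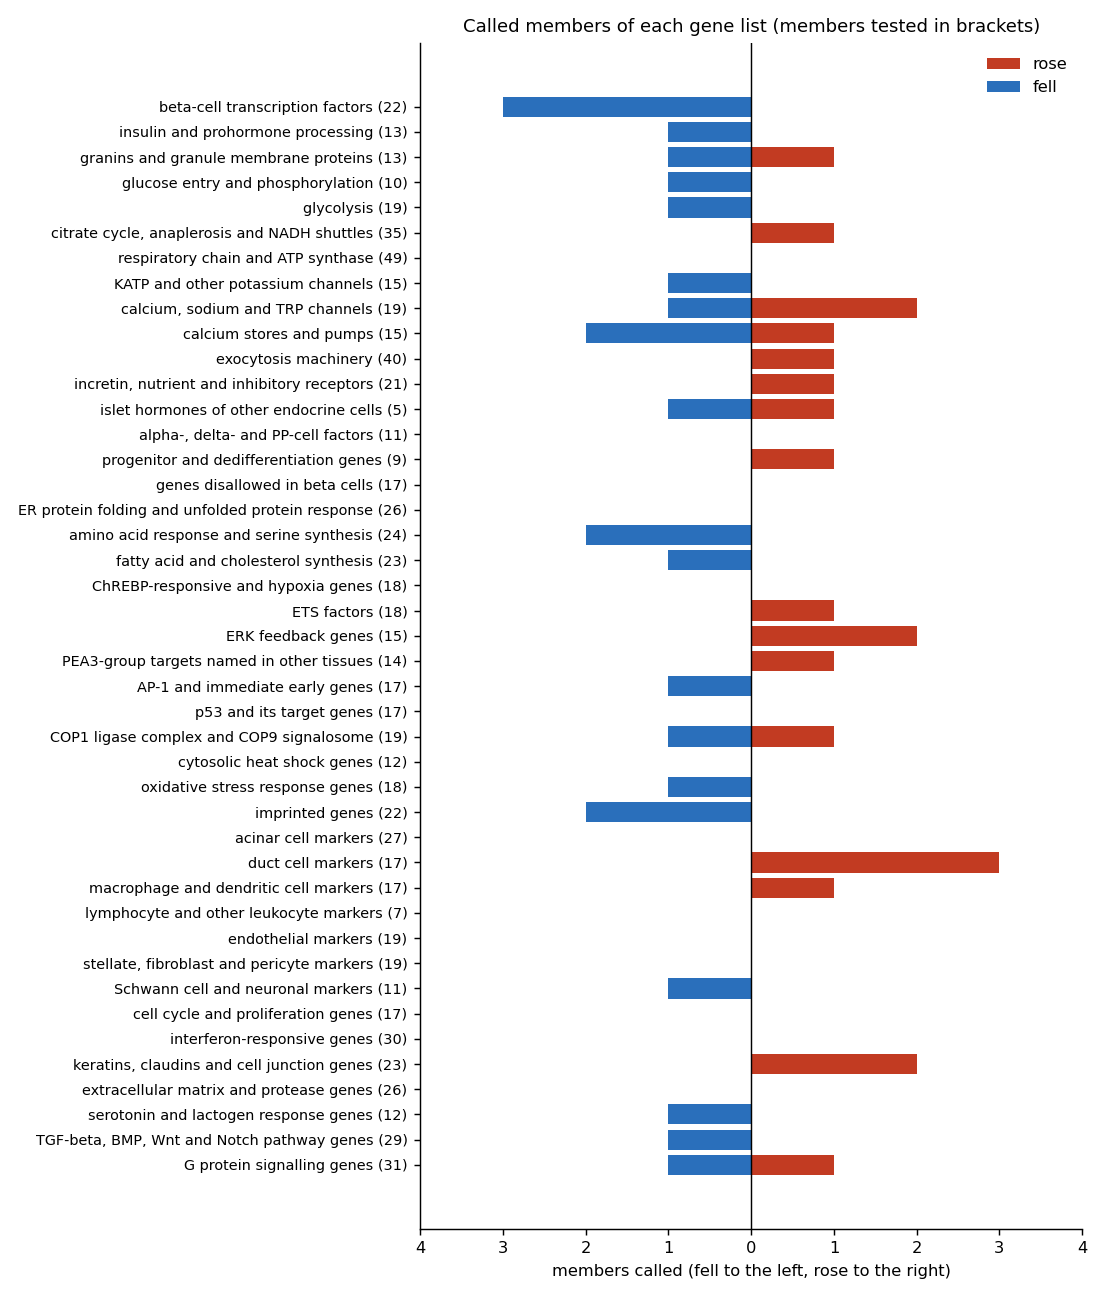
Number of members called higher (red, right) and lower (blue, left) after Cop1 deletion in each gene list with at least 5 members tested, with the number tested in brackets. The longest bars are 3 falls among 22 β-cell transcription factors and 3 rises among 17 duct cell markers.

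Markers of other cell types moved with some libraries. Of 17 duct cell markers 3 rose and none fell, and the sum of the list was 1660 to 2130 RPKM in control and 3430 to 5350 after deletion, of which Spp1 made up 750.4 to 1268 and 1844 to 3493. Epcam, an epithelial adhesion protein that islet cells also express, was at 103, 102, 106 and 111 RPKM in control and 205, 223, 195 and 209.5 after deletion and rose by 0.98 (SE 0.07, adjusted p = 0.00055). Krt7, a keratin of simple epithelia, was at 277, 259, 249 and 229 and 716, 779, 459 and 624 RPKM and rose by 1.32 (SE 0.16, adjusted p = 0.0058). The groups were well apart for both. The median of the 17 markers was 0.78, and without the 3 libraries that stood apart 5 rose and 0 fell. Krt7 and Epcam were also the 2 of 23 keratin, claudin and junction genes that rose, and without the 3 libraries 5 rose and 1 fell of these. Whether more duct cells in the deletion islets bear on Krt7, Epcam and Spp1 was not tested.

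None of 27 acinar cell markers was called by limma (0 at an unadjusted p below 0.05), though their median change was 1.46. The sum of the list was 1090 to 15400 RPKM in control and 5390 to 29600 after deletion, so the groups overlapped. Ctrb1, which encodes chymotrypsinogen, was at 5378, 1247, 2949 and 419 RPKM in control and 1747, 5637, 12630 and 5038 after deletion, lowest in control replicate 4 and highest in deletion replicate 3. Cela1, an elastase, ran in parallel, at 83.6 to 1945 and 692 to 3098 RPKM. In the 5 libraries without those that stood apart, the median of the list was 0.14. Reg3a and Try4, also of exocrine tissue, were among the genes with the widest spread after deletion, at 3, 16.9, 172 and 26.7 and 1.03, 26.5, 52.7 and 34.6 RPKM. Rps3a3, a copy of a ribosomal protein gene whose reads are hard to place, was at 0.0235 RPKM in deletion replicate 1 and at 6.29 to 22 in the other 3.

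Of 17 macrophage and dendritic cell markers 1 rose. C1qa, the A chain of complement C1q, was at 21.1, 14.1, 16.1 and 13.1 RPKM in control and 114, 116, 72.7 and 88.2 after deletion and rose by 2.56 (SE 0.19, adjusted p = 0.00056). Its partner chains C1qb and C1qc, chosen after their values were seen, were at 9.13, 6.25, 9.56 and 4.23 and 5.9, 4.66, 6.6 and 2.96 RPKM in control and 7.02, 23, 18.2 and 10 and 4.79, 13.5, 11.2 and 6.43 after deletion. In deletion replicates 1 and 4, C1qa was thus more than 4 times the highest control while C1qb and C1qc lay within or near the control range. The sum of the macrophage list was 137 to 274 RPKM in control, 297 to 331 in deletion replicates 1 and 4 and 512 to 793 in deletion replicates 2 and 3. Lyz2, lysozyme of myeloid cells, was at 5.71, 5.17, 23.8 and 2.41 RPKM in control and 3.12, 61.5, 64.9 and 5.3 after deletion, high only in deletion replicates 2 and 3 and control replicate 3. None of 7 lymphocyte and other leukocyte markers tested was called by limma (1 at an unadjusted p below 0.05), and Cd52 was at 1.24, 36, 11.6 and 1.78 RPKM in the deletion libraries. S100a9, of neutrophils, was at 0.907, 3.69, 0.169 and 3.91 and 20.2, 8.44, 14.5 and 1 RPKM, with overlap.

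Stromal, vascular and interferon lists gave no calls by limma but followed the libraries. At an unadjusted p below 0.05 there were 0 of 19 stellate, fibroblast and pericyte markers, 0 of 30 interferon-responsive genes, 1 of 19 endothelial markers and 3 of 26 extracellular matrix and protease genes. Over all 13342 genes tested, 2431 had such a p by limma. The 19 stellate, fibroblast and pericyte markers summed to 167 to 357 RPKM in control, 95.1 to 259 in deletion replicates 1 and 4 and 457 to 496 in deletion replicates 2 and 3, with Sparc and Mgp the most abundant. The 30 interferon-responsive genes summed to 1060 to 1730, 992 to 1070 and 1920 to 2160 RPKM. B2m, the light chain of class I molecules, was at 214, 226, 255 and 499.7 RPKM in control and 203, 512, 498 and 194 after deletion, high in control replicate 4 and deletion replicates 2 and 3, and H2-K1, a heavy chain, at 399 to 427 and 369.9 to 557. The median change of the interferon list was 0.31, and -0.08 without the 3 libraries that stood apart. The 19 endothelial markers, with Plvap and Esm1 the most abundant, had a median of 0.12. Among 26 extracellular matrix and protease genes, Serpina7 was at 49.5, 48.8, 67.9 and 14.1 and 206, 78.3, 85.9 and 85.8 RPKM. Of 11 Schwann cell and neuronal markers 1 fell, the neuronal tubulin Tubb3, at 25.6, 24.9, 28.1 and 23 and 6.32, 11.2, 9.73 and 9.11 RPKM (-1.46, adjusted p = 0.004). When the 3 libraries that stood apart were left out, 1 rose and 0 fell of the endothelial markers, 0 rose and 1 fell of the interferon-responsive genes and 1 rose and 1 fell of the matrix and protease genes. The part of cell composition in the called genes was not tested. A term for Xist or Y-linked RNA left 74 genes higher and 36 lower over the 8 libraries and 403 and 239 over the 12 libraries of set 2, and libraries with Xist alone gave 104 and 46.

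**Figure D4:**
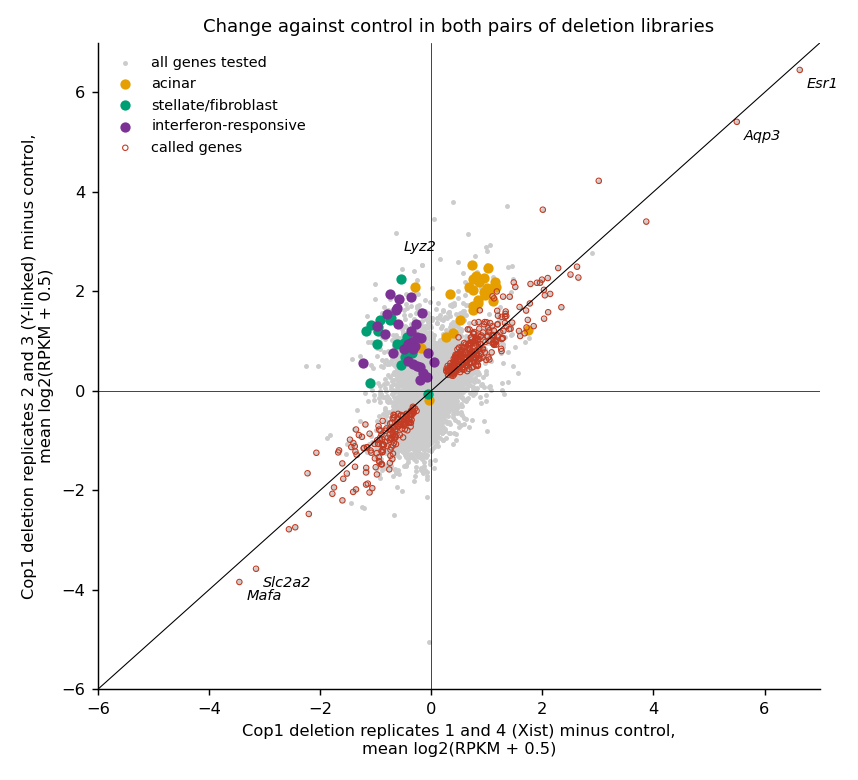
Mean change of each gene against control in deletion replicates 1 and 4 (horizontal) and in deletion replicates 2 and 3 (vertical), both in log2(RPKM + 0.5); the diagonal marks equal change. Called genes (red rings) lie along the diagonal, while most stellate, fibroblast and interferon-responsive genes (green and purple) lie above 0 on the vertical axis alone.

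The abundant genes that rose at least 2-fold included, beside Chgb, Pyy, Spp1, Prkar1a and Krt7, the genes Ctsl, Wipi1 and Selenop. Ctsl, the lysosomal protease cathepsin L, was at 209, 202, 247 and 249 RPKM in control and 461, 563, 616 and 421 after deletion and rose by 1.17 (SE 0.14, adjusted p = 0.0054). Wipi1, a phosphoinositide-binding protein of autophagosome formation, was at 71.7, 70.3, 71.9 and 70.5 and 239, 132, 205 and 191 RPKM and rose by 1.39 (SE 0.16, adjusted p = 0.0053). Selenop, the secreted selenium carrier selenoprotein P, was at 124, 97.5, 93.8 and 82 and 176, 231, 192 and 221 RPKM and rose by 1.05 (SE 0.14, adjusted p = 0.0085). The controls were tight for Wipi1, and no deletion library overlapped with a control for any of the 3.

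The response of set 2 was set beside that of set 1, the other set of libraries with the same 2 genotypes, in 1 fit over 14 libraries (3 and 3 of set 1, 4 and 4 of set 2). In set 1, 1 library labelled control had 99.1 RPKM of Esr1, close to the 106 to 111 of the set 1 deletion libraries, which goes against its label. Several genes with large changes in set 2 followed the labels clearly in all 3 set 1 controls. Aqp3 was at no more than 0.125 RPKM (12.6 to 17.1 after deletion), Mafa at no less than 144.5 (41.3 to 61.3) and Slc2a2 at no less than 188.9 (45 to 69). Rnf152 was at no more than 0.395 RPKM in these controls (8.1 to 9 after deletion). Atp4a was at no less than 3.04 (0.398 to 0.652) and Sytl4 at no less than 97.3 (32.3 to 43.1). For some other genes 1 set 1 control lay toward the deletion libraries. The highest control had 17.3 RPKM of Bend5 (median 3.17, from 21.3 after deletion), 12.7 of Aldh1a3 (median 2.04, from 21.2) and 9.86 of Rasgrf2 (median 4.01, from 16.5). Of the 279 genes that rose in set 2, 237 (84.9%) also had a positive change in set 1 and 86 were called there. Of the 170 that fell, 154 (90.6%) had a negative change and 60 were called. Over all genes tested, 48.2% had a positive change in set 1. Of all 13342 genes, 254 (1.9%) were called higher and 208 (1.56%) lower in set 1. Gla, an α-galactosidase gene chosen after its values were seen, was the 1 gene called in both sets in opposite directions, with 0.71 in set 2 and -0.55 in set 1. Aqp3 changed by 4.67 in set 1, Mafa by -1.95, Slc2a2 by -2.0 and Bend5 by 2.15. Cop1 itself was at 1.22 to 1.55 RPKM in set 1 controls and 0.984 to 1.13 after deletion. By limma it changed by -0.33 there and was not called (adjusted p = 0.20), nor was its difference between the sets (-0.31, adjusted p = 0.53).

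The change differed between the sets for 58 genes (0.435% of those tested), 35 of them among the 449 called in set 2. Without the set 1 control with Esr1 the number was 44, and without control replicate 4 of set 2 it was 196. Epcam was at 76.2 to 78.2 RPKM in set 1 controls and 73.6 to 78.7 after deletion, against a rise in set 2 (difference 0.99, adjusted p = 0.000735). Card19, which encodes a CARD-domain protein, was at 26.9, 26.1, 28.7 and 25.3 RPKM in control and 55, 62.4, 47.2 and 55.5 after deletion in set 2, and its change in set 1 was -0.11 (difference 1.13, adjusted p = 0.0054). Dgat2, which makes triglycerides, was at 2.78 to 4.1 and 7.46 to 9.07 RPKM in set 2, with changes of 1.11 and, in set 1, -0.25 (adjusted p of the difference = 0.0059). Ctsb, the lysosomal protease cathepsin B, was at 232, 232, 238 and 258 and 439, 430.3, 401 and 395 RPKM in set 2 and changed by 0.79, against -0.05 in set 1 (adjusted p of the difference = 0.0066). Fam111a, a protease gene, was at 1.49, 1.5, 1.7 and 2.06 and 7.71, 6.07, 6.95 and 4.72 RPKM in set 2, with changes of 1.64 and -0.38 (adjusted p of the difference = 0.01). The difference of each of these 5 genes was called whichever of the 14 libraries was left out.

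Other genes described above also differed between the sets, but lost that call when a library was left out. The change of Dusp5 was 0.21 in set 1 (adjusted p of the difference = 0.015, up to 0.068 without set 1 control replicate 1 or set 1 deletion replicate 3 or 4). For Trib1 it was -0.04 (adjusted p = 0.019, up to 0.078), for Lratd1 0.12 (adjusted p = 0.014, up to 0.061) and for Pcsk1 0.26 (adjusted p = 0.029, up to 0.10). Control levels of these genes differed between the sets. Set 1 controls were at 113 to 137 RPKM of Dusp5 and 65.4 to 75.1 of Trib1, above every set 2 control (at most 24.3 and 31.6). Lratd1 and Pcsk1 were lower in set 1 controls, at 3.77 to 4.26 and 211.5 to 238.5 RPKM. Atf3 was at 305.5 to 397.6 RPKM in set 1 controls and 8.32 to 10.3 in set 2 controls. The sets also differed in depth and in the libraries with Y-linked RNA. What distinguishes them beyond the sample numbers is not given in the sources used here.

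**Figure D5:**
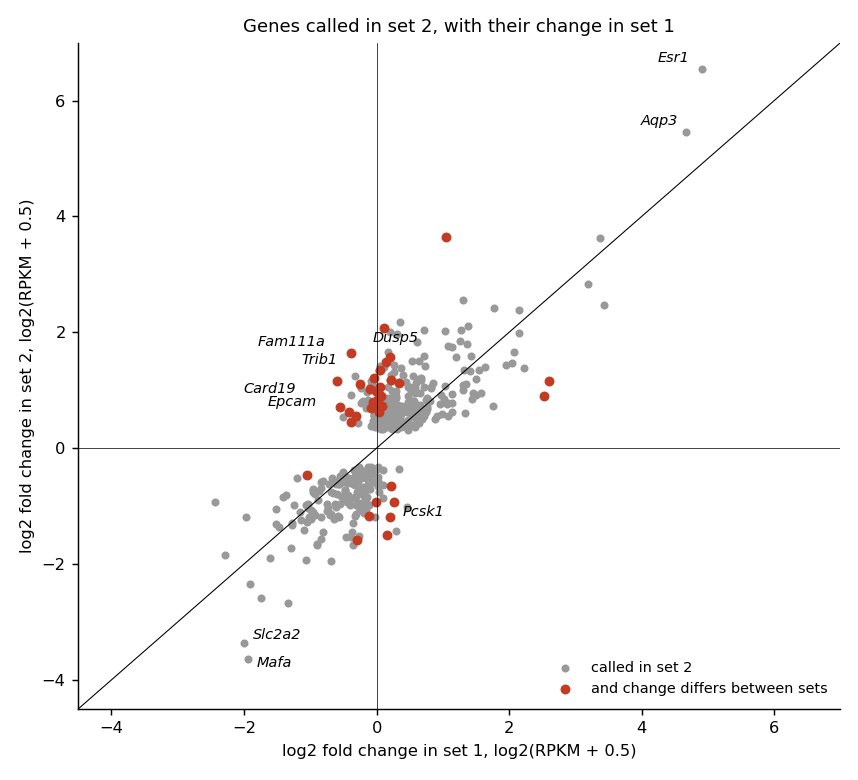
Log2 fold change in set 2 (vertical) and set 1 (horizontal) of the 449 genes called in set 2, with genes whose change differs between the sets in red and the diagonal marking equal change. Most points lie on the same side of 0 in both sets, and Epcam and Fam111a lie above the diagonal.

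Set 2 also holds 4 libraries labelled ΔCop1β ΔETV4/5β, from animals with Cop1 fl/fl, a single Etv4 ko allele (Etv4 ko/+) and Etv5 fl/fl, with Pdx1.CreERT2. They share their controls with the comparison above, so levels are given side by side with no test. Mafa was at 17.9, 35.3, 51.5 and 41.2 RPKM in these libraries, all above the highest Cop1 deletion library (16.1) and below the lowest control (104). Slc2a2 was at 8.37, 12.1, 17.1 and 14.3 RPKM, between the same groups. Aqp3 was at 34.9, 38, 37 and 41.5 RPKM, above every Cop1 deletion library. Dusp5 was at 29.7, 30.6, 33.9 and 32.4 RPKM, between control and Cop1 deletion. Chgb was at 1794, 1887, 1819 and 1977 RPKM, also between the groups. Other genes overlapped with the Cop1 deletion libraries. Cbs was at 9.98 to 14.8 RPKM (12.3 to 15.9 in Cop1 deletion), Bend5 at 11.7 to 21 (12.8 to 15.5) and Wipi1 at 170 to 183 (132 to 239). No rule chose the genes of this paragraph, so they do not give the share of genes at each level.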

How the data were processed

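RNA was taken from hand-picked mouse islets, purified on columns with DNase treatment and made into Illumina libraries, per the labels' protocols. The authors deposited a table of RPKM for 28059 genes by NCBI Gene number in 24 library columns. Reads were placed on mm9 (build named in the submitters' processing notes), and the aligner, counter and annotation were not given in the sources used here. Columns were placed by the sample number in the titles; 22 could be placed, and 2, both of set 1, were not analysed. Symbols came from GRCm38.p6 by gene number for 24998 genes. Read counts are unknown. Relative depth came from the smallest step between low values: for 3530 low genes below 0.3 RPKM, 89.2% to 90.8% of values per set 2 library lay within 0.05 of a whole multiple. No count test was run.

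Genes reaching 1 RPKM in at least 4 of the 8 libraries were tested with limma 3.58.1 in R 4.3.3 (trend, robust) on log2(RPKM + 0.5), which understates changes of low genes. Tests were 2-sided, with Benjamini-Hochberg adjustment over 13342 genes (940 without a symbol) and a threshold of 0.05. The set difference used the same genes and 14 libraries. Simulated libraries of 13342 genes had independent normal noise for each gene, and 200 genes were raised on the log2(RPKM + 0.5) scale. On these, the comparison of 8 libraries called 42% of genes set to change 1.5-fold, 72% at 2-fold and 0.061% where no change was set. The simulation held no differences between libraries that many genes share, as the real libraries do, so these are not error rates of the real comparison. No 2 libraries held identical values. The design text gives 5 biological replicates for each genotype, while the labels do not tie libraries to animals, so p-values measure the spread between these samples. Replicate numbers are in accession order and pair nothing.

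The members, gene lists and rules were chosen with earlier results of these data known. Named genes were the target, Cre-linked, Etv, insulin and X- and Y-linked genes; up to 5 called members of each list with the smallest adjusted p, or else the 2 most abundant; the 12 largest called changes in each direction without overlap between groups; the 8 most abundant called 2-fold changes in each direction; the 6 clearest set differences; and the 6 genes of widest spread after deletion. Others are marked as chosen after their values were seen. A few genes that this rule names are not reported here. Alternatives covered the pseudocount (0.1 and 1), the filter (none, 5 RPKM), scaling, the fit, library weights, more libraries, a term for Xist or Y-linked RNA, and leaving out libraries. Tables were handled with the packages data.table (version 1.17.8) and pandas (version 2.3.3).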

Additional observations from a re-analysis of the deposited data

Results flagged for a closer look

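In 25 of 264 groups of 4 values examined, 1 library lay far from the other 3 of its group, its gap to the nearest of them exceeding Dixon's critical value for 4 samples. Chance flags about 1 in 20 groups. Control replicate 3 stood alone for Lyz2 at 23.8 RPKM (2.41 to 5.71 in the others), Sst at 5456 RPKM (3821 to 4073 in the others) and Dgat2 at 2.78 RPKM (3.88 to 4.1 in the others). Control replicate 4 stood alone for B2m at 499.7 RPKM (214 to 255 in the others), Hspa5 at 1410 RPKM (1044 to 1083 in the others), Neurod1 at 80.9 RPKM (90.1 to 91.5 in the others), Notch1 at 8.7 RPKM (7.67 to 7.82 in the others), Scn3a at 4.23 RPKM (2.19 to 2.46 in the others), Hsp90b1 at 827 RPKM (613 to 623 in the others) and Vegfa at 139 RPKM (118 to 119 in the others). Cop1 deletion replicate 1 stood alone for Ugt1a2 at 25.6 RPKM (19.8 to 20.1 in the others), Serpina7 at 206 RPKM (78.3 to 85.9 in the others) and Ugt1a1 at 26.4 RPKM (19.8 to 20.2 in the others). Cop1 deletion replicate 2 stood alone for Bax at 81.4 RPKM (58.7 to 60.7 in the others), Glb1 at 28.6 RPKM (27.1 to 27.3 in the others), Etv1 at 1.81 RPKM (4.56 to 5.12 in the others), Fmo1 at 1.36 RPKM (0.406 to 0.531 in the others), Pyy at 6669 RPKM (3330 to 3808 in the others) and Rnf152 at 4.68 RPKM (8.44 to 9.02 in the others). Cop1 deletion replicate 3 stood alone for Aqp3 at 29.1 RPKM (32.2 to 32.7 in the others), Cdkn1a at 107 RPKM (58.1 to 66 in the others) and Reg3a at 172 RPKM (3 to 26.7 in the others). Cop1 deletion replicate 4 stood alone for Gcg at 28250 RPKM (16950 to 17500 in the others), Nop58 at 38.1 RPKM (34.4 to 35 in the others) and Dapl1 at 3.17 RPKM (2.12 to 2.21 in the others). Control replicate 4 held 7 of these values, deletion replicate 2 held 6, and control replicates 1 and 2 none.

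The change after Cop1 deletion differed between the sets for 12 of the genes described, by limma's test of the difference over all genes tested. The change in set 2 minus that in set 1, in log2 units, was 0.99 for Epcam (adjusted p = 0.000735), 1.13 for Card19 (adjusted p = 0.0054), 1.36 for Dgat2 (adjusted p = 0.0059), 0.85 for Ctsb (adjusted p = 0.0066), 1.26 for Gla (adjusted p = 0.01), 2.02 for Fam111a (adjusted p = 0.01), 1.95 for Lratd1 (adjusted p = 0.014), 1.38 for Dusp5 (adjusted p = 0.015), 1.25 for Trib1 (adjusted p = 0.019), -1.19 for Pcsk1 (adjusted p = 0.029), 0.96 for Ctsl (adjusted p = 0.037) and -1.06 for Ogdhl (adjusted p = 0.04). Gla was chosen after its values were seen. The differences of Lratd1, Ctsl, Pcsk1, Trib1, Ogdhl and Dusp5 were not called when at least 1 of the 14 libraries was left out, with adjusted p up to 0.061, 0.11, 0.10, 0.078, 0.13 and 0.068 in that order.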

How the results depend on the processing

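The counts of 279 higher and 170 lower genes stayed within 1.5 times with pseudocounts of 0.1 and 1, with no filter or a filter at 5 RPKM, with median ratio scaling, without a variance trend and without robust estimation. They did not under the following settings. At equal total RPKM 139 genes were higher, and at equal total RPKM without Ins1 and Ins2 129 were higher and 370 lower. Library weights gave 1714 higher and 1969 lower. Fitting all 12 libraries of set 2 gave 780 and 654, and all 22 libraries in 6 groups gave 1279 and 1394. A term for Xist or Y-linked RNA over the 8 libraries gave 74 and 36, and libraries with Xist alone gave 104 and 46. Without the 3 libraries that stood apart, chosen after seeing the data, there were 815 and 792. With a 2-fold minimum there were 89 and 60. Leaving out 1 library gave 84 to 329 higher and 39 to 260 lower, and for the set difference, 58 genes, 16 to 196. Some of these fits hold fewer or more libraries by construction; beyond that, the cause was not tested. Of 134 tested genes described, 67 kept their side of the threshold under all 24 alternatives, 50 lost a call and 17 gained one under at least 1, and none changed direction while called. No paired analysis was possible because the replicate numbers are in accession order. Counting error cannot be given without read counts.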

Other observations

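The genes in this paragraph were chosen after their values were seen, and their number says nothing of the groups they belong to. Beside Ctsl and Ctsb, 5 genes of lysosomal proteins rose. Ctsa, cathepsin A, was at 35.3, 34.2, 35.3 and 36.9 RPKM in control and 54.1, 63.2, 52.8 and 49.8 after deletion and rose by 0.62 (SE 0.09, adjusted p = 0.0089). Man2b1, an α-mannosidase, was at 17.9, 17.9, 17.5 and 16.9 and 23.8, 26, 24 and 26.1 RPKM and rose by 0.50 (SE 0.07, adjusted p = 0.0089). Glb1, a β-galactosidase, rose by 0.46 (adjusted p = 0.029, up to 0.098), Gla, an α-galactosidase, by 0.71 (adjusted p = 0.03, up to 0.1), and Grn, progranulin, by 0.68 (adjusted p = 0.026, up to 0.098). Lower after deletion were 6 genes of nucleolar proteins. Gnl2, a nucleolar GTPase, was at 34.4, 39.5, 34 and 40.6 and 28.1, 26.9, 24.6 and 25.6 RPKM and fell by 0.49 (SE 0.09, adjusted p = 0.022, up to 0.091). Nop58 fell by 0.42 (adjusted p = 0.025, up to 0.098), Ftsj3 by 0.42 (adjusted p = 0.022, up to 0.094), Mybbp1a by 0.38 (adjusted p = 0.043, up to 0.15), Utp4 by 0.36 (adjusted p = 0.036, up to 0.13) and Ncl, nucleolin, by 0.33 (adjusted p = 0.045, up to 0.16). The groups did not overlap for any of these genes, but at equal total RPKM the calls of Gla, Grn and the 6 nucleolar genes were lost, and that of Glb1 at equal total RPKM without Ins1 and Ins2.

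Single genes of other functions were also chosen after their values were seen. Cd274, the immune checkpoint ligand PD-L1, was at 8.26, 8.9, 8.32 and 8.4 RPKM in control and 39.4, 23.8, 24.2 and 33.2 after deletion and rose by 1.74 (SE 0.16, adjusted p = 0.0018). The 2 libraries that had most interferon-responsive RNA were the lowest of the deletion group for Cd274, and whether interferon bears on Cd274 was not tested. Vdr, the vitamin D receptor, was at 40.7, 41.6, 35.5 and 26.3 and 16.7, 13.7, 13.4 and 17.9 RPKM and fell by 1.19 (SE 0.16, adjusted p = 0.0092). Mat1a, which makes S-adenosylmethionine upstream of Cbs, was at 28.8, 28.6, 28.3 and 28.3 and 17, 16.1, 16.2 and 19.1 RPKM and fell by 0.72 (SE 0.07, adjusted p = 0.0029). Lpl, lipoprotein lipase, was at 89.9, 94.8, 86.2 and 95.4 and 48.2, 45.5, 58 and 65.5 RPKM and fell by 0.76 (SE 0.12, adjusted p = 0.015, up to 0.062). Ugt1a1 and Ugt1a2, which share exons so that their reads cannot be told apart, rose by 1.03 (adjusted p = 0.015, up to 0.061) and by 1.07 (adjusted p = 0.014, up to 0.06) and were not called at equal total RPKM. Iapp, amylin, was at 44060, 41570, 40290 and 24760 and 50300, 58140, 39210 and 54720 RPKM, and Chga, chromogranin A, at 4982, 4808, 4519 and 3286 and 3436, 4326, 2892 and 3744, with overlap and no call, beside the rise of Chgb. Ucn3, a marker of mature β cells, was at 215, 190.1, 168 and 80.5 and 109, 201, 96.4 and 222 RPKM (-0.06, adjusted p = 0.94) beside the fall of Mafa. Isl1, an endocrine factor, was at 49.9 to 62.8 and 47.2 to 54.5 RPKM, and Dpp4, a peptidase normally low in β cells, at 19 to 22.4 and 14.2 to 23.4.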
